A study of Mus musculus with 10 samples.

Results

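The 39 genes described here are markers of cells that copy their DNA or divide, and comprise 13 genes of S phase and its control, 22 genes of mitosis and 4 markers of chromatin and proliferation. They were picked by symbol as a gene module, with the MCM and origin licensing genes left out. The rule itself used no measured value, but the members were chosen with earlier results of these data known. All 39 were among the 17279 genes listed in the deposited table, and all 39 passed the filter on low counts. The libraries hold RNA from small intestine lamina propria macrophages of C57BL6/J mice, taken 24 h after either sham surgery (5 libraries) or pMCAO (5 libraries), permanent occlusion of the middle cerebral artery, which models ischaemic stroke. The cells of every library were sorted from the mucosa for CX3CR1-GFP, a reporter of the fractalkine receptor gene that is also carried by monocytes and some dendritic cells, so the sort alone does not isolate macrophages. The sample descriptions mark replicate 1 of each group as a pool, the number of animals behind the other libraries was not given in the labels, and age and sex were not given.

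Cells that enter the cycle first switch on E2F target genes, which supply the nucleotides and the replication machinery for S phase. In G2 and mitosis, Cdk1 with its cyclins, the Aurora and Polo-like kinases and the spindle motors condense, align and part the chromosomes, after which the anaphase-promoting complex destroys the cyclins. Most resident macrophages of the gut rest outside the cycle, and the pool of the small intestine is largely renewed by blood monocytes, while crypt epithelium, germinal centre B cells and activated T cells of the same tissue divide rapidly. A level of such a gene in sorted bulk RNA is an average over all cells of the sample. In bulk samples, fewer cycling cells and less RNA per cycling cell cannot be told apart.

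The promoters of the members, which the rule did not use, held different letters in the S-phase and the mitosis genes, given here as counts with no test. RefSeq windows of GRCm38.p6, from 250 bases before to 50 bases after the start site, were held for 32 of the 39 genes and for 27025 genes in all, and they were searched on both strands for the letters of the cell cycle genes homology region (CHR, TTTGAA), the CCAAT box (CCAAT) and E2F sites (any of the forms TTCGCGC, else TTGGCGC, else TTCCCGC, else TTGCCGC). The CHR is known as the site at which the DREAM and MuvB complexes hold mitotic genes silent and later switch them on. Of the 17 mitosis members with a window, 12 held the CHR letters (70.6%), against 1 of the 12 S-phase members (8.33%) and 20.2% of all genes with a window. The CCAAT box was found in 15 of the 17 mitosis members (88.2%), in 5 of the 12 S-phase members (41.7%) and in 41.1% of all genes. For E2F letters the order was the other way round, with 2 of the 17 mitosis members (11.8%), 5 of the 12 S-phase members (41.7%) and 10.9% of all genes. ATTGG, the CCAAT box read on the other strand, shares letters with TTGGCGC, so that 1 stretch can count for both. These matches describe the letters of the windows and were not tested as binding sites. Ccna2, Stmn1, Tpx2, Ccne2, Kif20a, Pbk and Aurkb had no window. The promoters of 6 genes whose levels are given below are shown from 130 bases before to 20 bases after the RefSeq start, 5′ to 3′ on the gene's strand, because they carry these letters. Capitals mark the CHR, CCAAT and E2F letters. Kif11 (chr19:37376252-37376401, plus strand), Kif23 (chr9:61946780-61946929, minus strand), Cdk1 (chr10:69352893-69353042, minus strand) and Top2a (chr11:99024170-99024319, minus strand) hold a CHR near the start, Mki67 (chr7:135716360-135716509, minus strand) holds CHR and E2F letters, and Rrm1 (chr7:102441565-102441714, plus strand) stands for the S-phase members, with an E2F match and no CHR.
Kif11: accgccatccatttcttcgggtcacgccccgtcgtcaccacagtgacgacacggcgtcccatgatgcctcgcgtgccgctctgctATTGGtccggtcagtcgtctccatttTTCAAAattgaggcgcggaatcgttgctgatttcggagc
Kif23: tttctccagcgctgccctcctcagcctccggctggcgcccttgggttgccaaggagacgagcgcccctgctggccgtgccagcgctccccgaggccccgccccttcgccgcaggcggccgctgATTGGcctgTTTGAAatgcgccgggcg
Cdk1: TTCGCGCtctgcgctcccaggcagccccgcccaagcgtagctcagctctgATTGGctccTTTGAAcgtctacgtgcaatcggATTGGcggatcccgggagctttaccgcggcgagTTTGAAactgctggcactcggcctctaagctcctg
Top2a: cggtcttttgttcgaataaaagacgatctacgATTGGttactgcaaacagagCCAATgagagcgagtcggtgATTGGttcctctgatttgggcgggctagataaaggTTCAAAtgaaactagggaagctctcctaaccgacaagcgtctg
Mki67: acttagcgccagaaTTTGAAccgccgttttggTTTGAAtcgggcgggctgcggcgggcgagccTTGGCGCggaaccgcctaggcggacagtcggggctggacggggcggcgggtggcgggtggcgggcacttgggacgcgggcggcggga
Rrm1: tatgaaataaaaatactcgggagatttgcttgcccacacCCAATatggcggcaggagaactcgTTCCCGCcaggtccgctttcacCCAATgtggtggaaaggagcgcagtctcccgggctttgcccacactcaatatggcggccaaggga
In Kif11 the CCAAT letters began 45 bases and the CHR 19 bases before the start, and in Kif23 the same pair sat 7 bases before and 2 bases after it. Birc5 and Dut held none of the 3 motifs.

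Sequencing depth differed between the groups. Total counts ran from 18894151 to 60665972 in the sham group (median 33913980) and from 6430643 to 28672285 in the pMCAO group (median 11605371). The 39 genes took 0.0865 to 0.146% of the counts in sham libraries and 0.0700 to 0.106% in pMCAO libraries. No member was at 0 counts in any library, and the smallest count was 5, so that the weakest members rest on few reads. Levels below are CPM, counts relative to the library total, scaled by TMM, a correction for library composition. Sham 5 and pMCAO 4 stand apart, with 1756 and 4461 CPM of Xist, the RNA of the silenced X chromosome in female cells, against 1.39 to 4.92 CPM in the other 8 libraries. The median fold change of the members and the fits of Dut, Birc5, Kif11, Kif23 and Stmn1 are also given without both of them. All 12 macrophage markers were detected in every library, with Cx3cr1 at 98.8 to 224 CPM. Mast cell, plasma cell and epithelial markers were present as well.

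Per kilobase of transcript, the members covered a wide range. Pcna, the sliding clamp that tethers DNA polymerases to their template, had the highest mean level over the 10 libraries, 77.2 RPKM (CPM per kilobase of the longest annotated transcript), with single libraries at 59.9 to 88.5. Hmgb2, a chromatin protein abundant in dividing cells, followed at 25.1 RPKM, Mki67 at 24.4, Top2a at 19.2 and Dut at 11.1. Hmgb2 and Mki67 overlapped in their ranges over libraries, 20.1 to 32.9 and 14.1 to 31.0 RPKM, and are not separated by this order. These 5 genes were the ones above 10 RPKM. Another 26 lay between 2 and 10 RPKM, and 8 lay under 2 RPKM, among them Cdk1 (1.33), Kif20a (1.205) and Brca1 (1.18). The median over the 39 genes was 3.83 RPKM. Pcna also works in DNA repair, and its level was 3.07 times that of the next gene.

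The comparison of pMCAO with sham asked whether stroke alters the macrophages of the small intestine. None of the 39 genes passed an adjusted p of 0.05 by edgeR's quasi-likelihood test with Benjamini-Hochberg adjustment over 16949 genes, and none of all genes did (percent called 0 in either direction, smallest adjusted p = 0.922). The fitted log2 fold change (pMCAO against sham) was below 0 for 32 of the 39 genes (82.1%), against 50.6% of all genes tested. Its median was -0.25 for the members and -0.0059 for all genes, with members from -0.90 (Birc5 and Kif11) to 0.32 (Cenpa). Because the members were chosen with earlier results of these data known, these contrasts with all genes are descriptions and were not tested. At an unadjusted p under 0.05, 5 members were lower in pMCAO, namely Kif11, Kif23, Stmn1, Birc5 and Dut, and 0 were higher, beside 2.45% of all genes lower and 2.26% higher. The 2 groups did not overlap for 2 members, Kif11 and Stmn1, both with every pMCAO library below every sham library, beside 0.537% of all genes lower and 0.448% higher without overlap. For 34 of the 39 genes the 95% interval of the log2 fold change included 0, and for 21 it reached a 2-fold difference in at least 1 direction, so that the spread between libraries leaves room for sizeable differences that were not detectable here. As the plot of fitted differences shows, the intervals of weakly expressed genes such as Ung and Ccne1 were the widest.

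**Figure D1:**
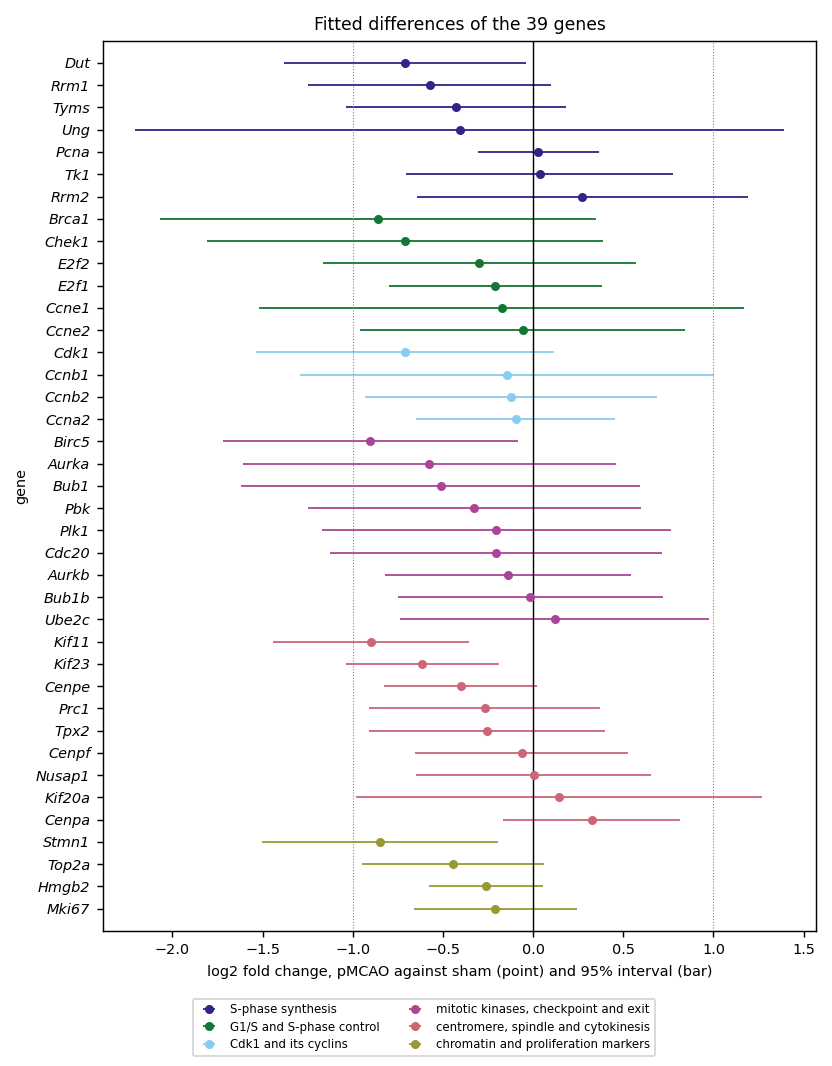
Fitted log2 fold change of pMCAO against sham (horizontal axis, points) with its 95% interval (bars) for each of the 39 genes (vertical axis), coloured by role, with dotted lines at a 2-fold difference. The points of 32 genes lie below 0, and the intervals of 5 genes, Dut, Birc5, Kif11, Kif23 and Stmn1, end below 0.

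Among the 7 genes of S-phase synthesis, 4 had fold changes below 0, with a median of -0.41. Dut, the dUTPase that keeps uracil out of DNA, stood at 17.4, 25.8, 24.1, 34.7 and 32.7 CPM in sham libraries 1 to 5 and at 19.1, 17.4, 11.8, 7.96 and 25.9 CPM in pMCAO libraries 1 to 5. The pMCAO libraries 3 and 4 lay well below all sham libraries, pMCAO 2 was level with the lowest of them, and pMCAO 1 and pMCAO 5 lay among them, so that the groups overlapped. The fitted log2 fold change was -0.71 ± 0.31 (SE, unadjusted p = 0.0390, adjusted p = 0.922 by edgeR), and without pMCAO 4 it was -0.54 with an unadjusted p of 0.0704. Without both Xist libraries it was -0.46 with an unadjusted p of 0.144, and the unadjusted p was under 0.05 in 12 of 21 fits. Rrm1, the large subunit of ribonucleotide reductase, which makes deoxyribonucleotides, stood at 18.6, 48.0, 42.5, 23.7 and 43.4 CPM in the sham and at 28.6, 30.4, 15.7, 15.0 and 28.7 CPM in the pMCAO libraries. Every pMCAO value of Rrm1 lay below the sham median, but sham 1 and sham 4 lay below 3 of the pMCAO libraries, and the difference of -0.57 ± 0.31 (SE) did not pass (unadjusted p = 0.0875, adjusted p = 0.922). Pcna was the steadiest member by level. Its values were 131, 108, 102, 134 and 104 CPM in sham and 129, 90.9, 114, 132 and 125 CPM in pMCAO libraries, and the groups overlapped, with pMCAO 2 below every sham library. Its log2 fold change was 0.029 (95% interval -0.31 to 0.36), which leaves out a 2-fold difference in either direction. Tyms, which makes thymidylate, differed by -0.43 ± 0.28 (SE). The other 3 were Rrm2, the small subunit of the reductase (0.27 ± 0.42), Tk1, the thymidine kinase of cycling cells (0.035 ± 0.34), and Ung, the uracil-DNA glycosylase (-0.41 ± 0.83). Ung spread from 0.51 to 15.3 CPM over the libraries, the widest range among the 39 genes relative to its level. When single libraries were left out, Pcna, Tk1, Ung and Rrm2 changed sign, so that no direction is given for them. Pcna has 2 and Tyms 1 annotated processed pseudogenes, and how reads shared with these were counted was not given.

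All 6 genes of G1/S and S-phase control had fold changes below 0 (median -0.25), and none passed at an unadjusted p under 0.05. E2f1, an E2F factor that switches on S-phase genes, had the highest mean CPM among them, with 10.5, 8.34, 11.2, 12.3 and 9.69 CPM in sham and 7.18, 12.4, 11.5, 6.15 and 7.72 CPM in pMCAO libraries. Its values in pMCAO 2 and pMCAO 3 were as high as those of the sham group, and the groups overlapped (-0.21 ± 0.27 log2, SE, adjusted p = 0.945 by edgeR). Brca1, which repairs broken DNA by recombination, stood at 3.14, 9.34, 10.6, 16.9 and 10.2 CPM in the sham and at 4.10, 10.7, 2.63, 1.39 and 8.47 CPM in the pMCAO libraries. The sham group itself reached from 3.14 CPM in sham 1 to 16.9 CPM in sham 4, a spread as wide as the distance between the groups, and the difference of -0.86 ± 0.56 did not pass (unadjusted p = 0.148, adjusted p = 0.922). Chek1, the kinase that halts the cycle when replication stalls, stood at 3.32, 5.82, 13.9, 3.65 and 6.93 CPM in sham and at 3.66, 1.58, 6.06, 2.79 and 6.48 CPM in pMCAO libraries. Sham 3 alone stood high, and the other values of both groups were mixed (-0.71 ± 0.51, unadjusted p = 0.185). E2f2 (-0.30 ± 0.40) and the E cyclins Ccne1 (-0.17 ± 0.62) and Ccne2 (-0.058 ± 0.42), which drive the entry into S phase with Cdk2, differed by less than 1 SE. Exons of Ccne2 overlap Ints8 on the opposite strand over 17.4% of their length, and whether reads were counted by strand was not given in the sources used here.

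Cdk1 and its cyclins, the engine of mitosis, had 4 of 4 fold changes below 0 (median -0.13). Cdk1 was measured at 9.53, 5.53, 10.3, 5.16 and 5.68 CPM in sham libraries 1 to 5 and at 4.40, 7.14, 4.95, 2.63 and 2.98 CPM in pMCAO libraries 1 to 5. Sham 1 and sham 3 were the highest, pMCAO 4 and pMCAO 5 the lowest, and the middle values overlapped. The log2 fold change was -0.71 ± 0.38 (SE, unadjusted p = 0.0855, adjusted p = 0.922 by edgeR). Ccna2, the A cyclin of S and G2 phase, had 21.4, 27.5, 23.8, 18.6 and 24.7 CPM in sham and 26.8, 27.2, 25.5, 10.7 and 18.6 CPM in pMCAO libraries. Apart from pMCAO 4, the pMCAO values lay within the sham range, and the fold change of -0.096 (95% interval -0.65 to 0.46) leaves out a 2-fold difference. Ccnb1 and Ccnb2, the B cyclins that activate Cdk1 at mitosis, differed by -0.15 ± 0.53 and -0.12 ± 0.37. Both B cyclins were highest in pMCAO 3 and lowest in pMCAO 4, and the signs of Ccna2, Ccnb1 and Ccnb2 turned when pMCAO 4 was left out. Both B cyclins also have an annotated pseudogene, and 12.5% of the exon length of Ccna2 overlaps Exosc9 on the opposite strand.

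Of the 9 mitotic kinases, checkpoint and exit genes, 8 had fold changes below 0 (median -0.20). Birc5 (survivin), which targets Aurora B to the centromere and the cleavage plane, stood at 12.4, 8.80, 11.1, 15.0 and 10.2 CPM in sham and at 6.16, 9.62, 8.59, 2.30 and 4.06 CPM in pMCAO libraries. Sham 2 lay below pMCAO 2, and every other sham library lay above every pMCAO library. Its log2 fold change was -0.90 ± 0.38 (SE, unadjusted p = 0.0329, adjusted p = 0.922 by edgeR), and -0.70 without pMCAO 4 (unadjusted p = 0.0499). Without both Xist libraries it was -0.74 with an unadjusted p of 0.0635, and over all 21 fits the unadjusted p was under 0.05 in 14 and reached 0.0912. Aurka, the Aurora kinase of the centrosome, stood at 7.30, 4.49, 1.81, 1.82 and 4.42 CPM in sham and at 2.20, 2.93, 3.03, 3.12 and 2.06 CPM in pMCAO libraries. The pMCAO values were close together while the sham values spread around them, and the groups overlapped (-0.57 ± 0.48, unadjusted p = 0.249). Ube2c, the ubiquitin-conjugating enzyme of the anaphase-promoting complex, had the highest mean CPM of this role, with 22.7, 14.8, 17.1, 26.0 and 17.4 CPM in sham and 24.3, 21.9, 39.6, 5.74 and 15.0 CPM in pMCAO libraries. Both the highest and the lowest value of Ube2c were in the pMCAO group, in pMCAO 3 and pMCAO 4, and its fitted difference of 0.12 ± 0.39 changed sign between fits. The other 6 ranged from -0.51 for Bub1 to -0.015 for Bub1b, both genes of the spindle checkpoint. Between them were Pbk, a mitotic kinase (-0.33 ± 0.42), Plk1, the Polo-like kinase (-0.20 ± 0.44), Cdc20, which activates the anaphase-promoting complex (-0.20 ± 0.42), and Aurkb, the kinase of the chromosomal passenger complex (-0.14 ± 0.31). Exons of Ube2c overlap Tnnc2 on the opposite strand over 22.8% of their length.

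The 9 genes of centromere, spindle and cytokinesis held the 2 smallest p values of the module, and 6 of the 9 had fold changes below 0 (median -0.25). Kif11 (Eg5), the motor that pushes the spindle poles apart, lies on chromosome 19, from 37376403 to 37421859 (GRCm38, plus strand). Its level was 33.2, 32.6, 31.5, 42.5 and 28.4 CPM in sham libraries 1 to 5 and 22.7, 20.4, 17.0, 8.70 and 21.4 CPM in pMCAO libraries 1 to 5. The lowest sham library, sham 5, lay above the highest pMCAO library, pMCAO 1, and pMCAO 4 was the lowest of all. Means were 33.7 ± 5.30 CPM (SD, n = 5) in sham and 18.04 ± 5.64 CPM (SD, n = 5) in pMCAO. The log2 fold change was -0.90 ± 0.25 (SE, unadjusted p = 0.00347, adjusted p = 0.922 by edgeR). Without pMCAO 4 it was -0.73 (unadjusted p = 0.00229), and without both Xist libraries -0.78 (unadjusted p = 0.00232). Kif23, the motor of the centralspindlin complex that prepares the cut between daughter cells, lies on chromosome 9, from 61915905 to 61946774 (minus strand). Kif23 stood at 33.4, 24.8, 41.1, 35.98 and 41.2 CPM in the sham and at 16.3, 24.6, 24.9, 24.5 and 24.9 CPM in the pMCAO libraries. The values of pMCAO 2 to pMCAO 5 were nearly equal, pMCAO 1 was lower, and sham 2 was the only sham library within the pMCAO range. The difference of -0.61 ± 0.20 had an unadjusted p of 0.00822 (adjusted p = 0.922 by edgeR), and without both Xist libraries it was -0.58 (unadjusted p = 0.0302). Kif11 and Kif23 had an unadjusted p under 0.05 in all 20 alternative fits, but an adjusted p of at most 0.05 in none.

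Cenpe, the kinetochore motor that brings chromosomes to the spindle equator, had the highest mean CPM of this role. It was measured at 28.2, 41.2, 31.6, 32.3 and 35.99 CPM in sham and 30.2, 27.3, 25.6, 16.5 and 28.6 CPM in pMCAO libraries. Every pMCAO value was below the sham median, although pMCAO 1 and pMCAO 5 lay above sham 1 (-0.40 ± 0.20 log2, SE, unadjusted p = 0.0608, adjusted p = 0.922 by edgeR). Cenpa, the histone variant that marks centromeres, stood out in the other direction. With 20.9, 16.9, 19.0, 29.2 and 26.8 CPM in sham and 23.5, 22.6, 40.8, 29.9 and 24.8 CPM in pMCAO, it was the only member with no pMCAO library below the sham median, and its difference of 0.32 ± 0.23 did not pass either (unadjusted p = 0.177). The spindle proteins Prc1 (-0.27 ± 0.29), Tpx2 (-0.25 ± 0.30) and Nusap1 (0.0024 ± 0.30), the kinetochore protein Cenpf (-0.063 ± 0.27) and the cytokinesis motor Kif20a (0.14 ± 0.52) differed by less than 1 SE. Exons of Kif20a overlap Cdc23 on the opposite strand over 29.3% of their length, and those of Prc1 overlap Rccd1 over 11.1%.

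The 4 chromatin and proliferation markers all had fold changes below 0 (median -0.35). Stmn1 (stathmin), which destabilises microtubules, stood at 10.4, 9.28, 8.47, 12.6 and 9.74 CPM in sham and at 4.84, 6.16, 7.38, 2.95 and 6.64 CPM in pMCAO libraries. The lowest sham library, sham 3, lay above the highest pMCAO library, pMCAO 3, and the groups did not overlap. Means were 10.1 ± 1.58 CPM (SD, n = 5) and 5.59 ± 1.74 CPM (SD, n = 5). The log2 fold change was -0.85 ± 0.30 (SE, unadjusted p = 0.0152, adjusted p = 0.922 by edgeR), and -0.70 without both Xist libraries (unadjusted p = 0.0438). The unadjusted p was under 0.05 in 20 of 21 fits, and reached 0.0591 by edgeR without both pools. Top2a, the topoisomerase that untangles sister chromatids, stood at 106, 132, 122, 77.6 and 141 CPM in sham and at 85.3, 106, 82.5, 47.0 and 105 CPM in pMCAO libraries. Sham 4 lay within the pMCAO range and pMCAO 4 was lowest (-0.44 ± 0.23, unadjusted p = 0.0802, adjusted p = 0.922). Mki67 encodes Ki-67, the common marker of cycling cells, and took 19.4 to 29.2% of the summed level of the 39 genes in a library. Its values were 227, 312, 305, 199 and 271 CPM in sham and 246, 300.4, 235, 142 and 213 CPM in pMCAO libraries. Other than pMCAO 4, the pMCAO libraries lay within the sham range, and the log2 fold change was -0.21 (95% interval -0.66 to 0.24). Hmgb2 had 60.7, 72.0, 69.4, 86.4 and 71.2 CPM in sham and 65.4, 52.9, 65.4, 63.1 and 53.8 CPM in pMCAO libraries (-0.26 ± 0.15), a narrow overlap in which sham 1 was the only sham library below 3 of the pMCAO libraries.

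**Figure D2:**
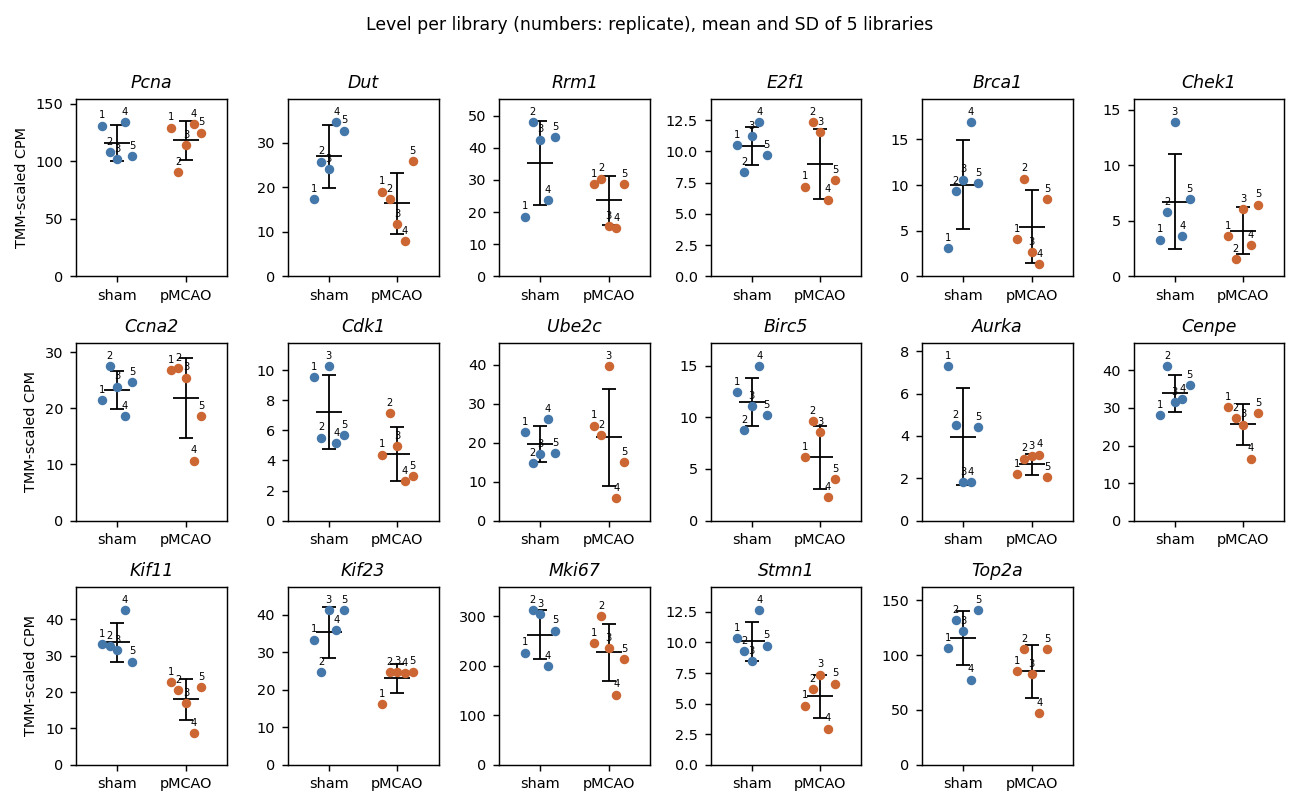
Level of 17 members in each library (vertical axis, TMM-scaled CPM from 0; points, numbered by replicate) for sham (blue) and pMCAO (orange), with the mean and SD of the 5 libraries of a group in black. Kif11 and Stmn1 are the panels in which no pMCAO point reaches the sham points, Pcna and Mki67 show overlapping groups, and pMCAO 4 is often the lowest point.

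Seen by library, the module was uneven within the pMCAO group. The 39 genes summed to 990.4, 1128, 1137, 1028 and 1148 CPM in sham libraries 1 to 5 and to 935, 1028, 1013, 667 and 935 CPM in pMCAO libraries 1 to 5. The library pMCAO 4 lay far below the rest, and pMCAO 2 and pMCAO 3 lay within the sham range. On the log2 scale the ratio of the mean sums was -0.25, and -0.16 without pMCAO 4. The library pMCAO 4 was the lowest of the 10 for 23 of the 39 genes and the highest for 0, and it lay below the lowest sham library for 28 genes, against 9 to 12 genes in the other 4 pMCAO libraries. Counts of this kind, here and below, were not taken over all genes. They do not show whether the dip was particular to the module. The median deviation of pMCAO 4 from the gene means was -0.80 on the log2 scale. Without it, the median log2 fold change of the members was -0.15 with 29 of 39 below 0, and 4 members (Kif11, Kif23, Stmn1 and Birc5) were lower at an unadjusted p under 0.05. With sham 5 also left out, the median was -0.13 with 27 of 39 below 0, and the 3 members at an unadjusted p under 0.05 were Kif11, Kif23 and Stmn1. Leaving out pMCAO 3 moved the median the other way, to -0.41 with 34 of 39 below 0. The library pMCAO 3 was the highest of the 10 for 9 members, 8 of them mitosis genes (Ccnb1, Ccnb2, Bub1b, Pbk, Cdc20, Ube2c, Cenpa and Nusap1) and 1 of S phase (Rrm2), while it was the lowest for Tk1, Ung, Ccne2 and Tpx2. Sham 4 was the highest for 12 members. In 31 of the 39 genes the log2 range over the 5 libraries was wider in pMCAO than in sham (median 1.34 against 0.91), and without pMCAO 4 the pMCAO median was 1.14 over 4 libraries. Total counts were lower in the pMCAO group, and the part of depth in these ranges was not tested. The share of all genes with a wider range in pMCAO was not taken.

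**Figure D3:**
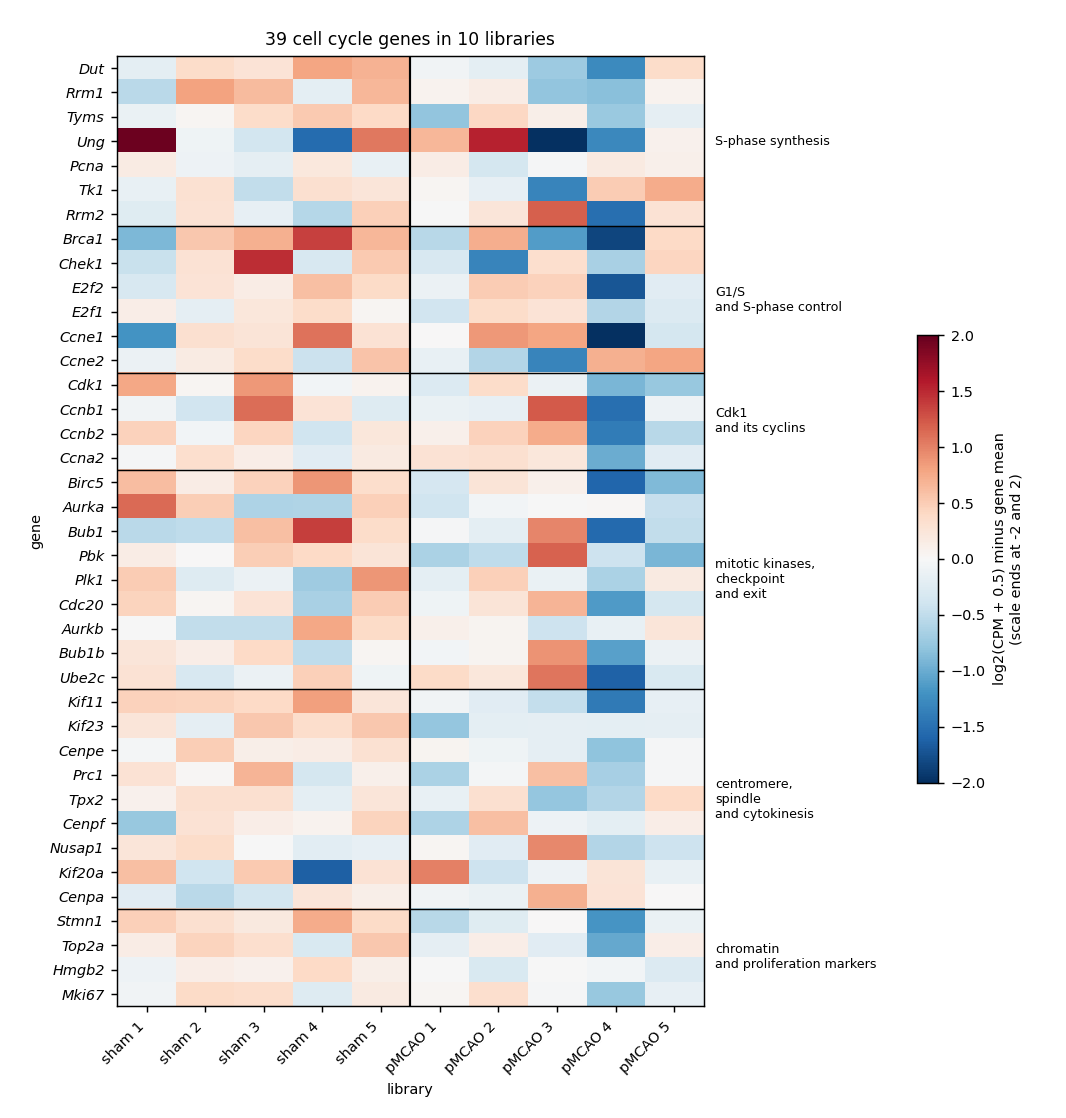
Deviation of each library (columns) from the mean of the 10 libraries on the log2(CPM + 0.5) scale for the 39 genes (rows, grouped by role), red above and blue below the gene's mean, with colours capped at -2 and 2. The column of pMCAO 4 is blue for most genes (median -0.80), and that of pMCAO 3 is red for B cyclins, checkpoint genes, Pbk and Ube2c.

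Other genes of the cell cycle were read in lists chosen for their role, also with earlier results of these data known, so that they are not independent support. Of 26 genes of the replication fork and S-phase chromatin, 25 had fold changes below 0 (median -0.31), and 5 were lower at an unadjusted p under 0.05, among them Clspn, Prim1, Hells and Uhrf1, with 0 higher. Clspn, the adaptor through which stalled forks activate Chek1, had the smallest p of the list, with 9.64, 7.92, 6.88, 12.1 and 9.87 CPM in sham and 1.47, 3.61, 4.75, 4.59 and 3.89 CPM in pMCAO libraries. No pMCAO library reached the lowest sham library (-1.33 ± 0.35, unadjusted p = 0.00262, adjusted p = 0.922 by edgeR). The gene of highest mean CPM in this list was Atad2, a chromatin ATPase (-0.25 ± 0.14), and the only gene above 0 was Slbp, the histone mRNA binding protein (0.34 ± 0.18, unadjusted p = 0.0811). Of 45 other mitosis genes, 37 were below 0 (median -0.21), and 1 was lower at an unadjusted p under 0.05, the chromosome motor Kif4 (-0.98 ± 0.37, unadjusted p = 0.0212). The condensin subunit Smc4, highest by mean CPM, differed by -0.21 ± 0.17, and the smallest p above 0 was that of anillin, Anln, at 0.25 ± 0.23. None of these genes passed an adjusted p of 0.05.

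The lists outside S phase and mitosis were centred near 0. Of 8 G1 cyclins and their kinases, 3 were below 0 (median 0.035). Cdk6, which starts the exit from rest and was highest by mean CPM, differed by 0.26 ± 0.22, and the related kinase Cdk4 by -0.36 ± 0.21. Of 20 cell cycle inhibitors and quiescence genes, 9 were below 0 (median 0.015), with Btg1, an antiproliferative gene highest by mean CPM, at -0.056 ± 0.20, the repressor E2f8 at -0.57 ± 0.29 and the retinoblastoma gene Rb1 at 0.25 ± 0.17. No gene of either list had an unadjusted p under 0.05 in either direction. The difference between the lists was not tested.

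**Figure D4:**
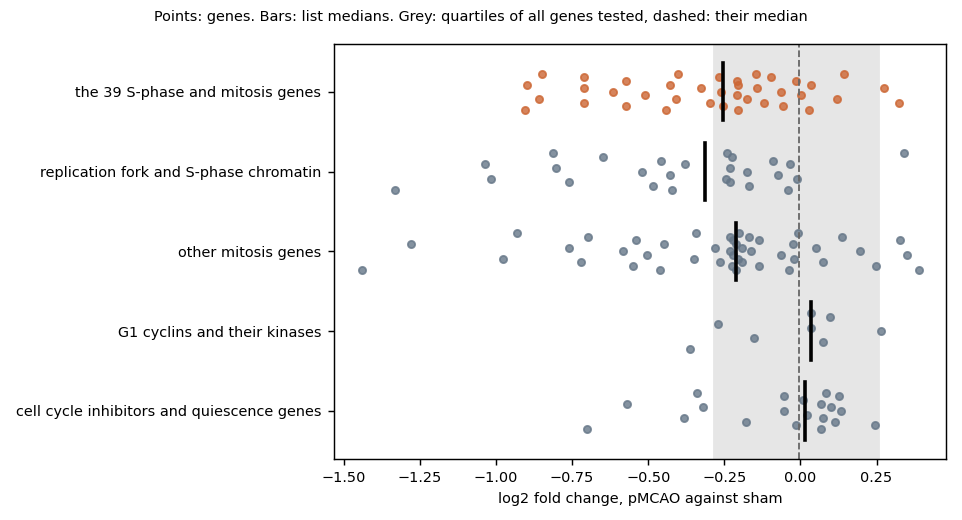
Log2 fold change of pMCAO against sham (horizontal axis) for the genes of each cell cycle list (rows, points), with list medians as black bars, the quartiles of all 16949 genes tested in grey and their median dashed. The medians of the 39 genes (-0.25), the replication fork list (-0.31) and the other mitosis genes (-0.21) lie left of the dashed line, and those of G1 cyclins (0.035) and inhibitors (0.015) lie at it.

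Markers of other dividing or abundant cell types were read beside these results. The 8 markers of crypt stem and transit amplifying epithelium, a rapidly cycling compartment, summed to 154 to 223 CPM in sham and 21.2 to 119 CPM in pMCAO libraries, and the groups of sums did not overlap. This gap rests on Olfm4, which stood at 72.3 to 164 CPM in sham and 4.84 to 71.1 CPM in pMCAO libraries. It was the only one of the 8 markers whose own groups did not overlap. All 8 had fold changes below 0 and were detected in every library, 1 of them with an unadjusted p under 0.05 (Olfm4, -1.78 ± 0.49, unadjusted p = 0.00354). The library pMCAO 4 had the lowest crypt sum, as it had for the module. The 10 general epithelial markers summed to 492 to 1052 CPM in sham and 129 to 1237 CPM in pMCAO libraries, with 8 of 10 below 0, and were highest in pMCAO 3 and lowest in pMCAO 4. The high sum of pMCAO 3 rests on Muc2, at 698 CPM there against at most 219 CPM in sham libraries. The 8 T cell markers, with 8 of 8 below 0, summed to 209 to 487 and 211 to 321 CPM. Cd4 was the highest of the 8 in every library, at 113 to 179 CPM in sham and 93.2 to 178 CPM in pMCAO libraries. In sham 4, where the sum was 209 CPM, Cd4 stood at 179 CPM and Cd3e at 0.82 CPM. Cd3e ran from 0.82 to 46.9 CPM in sham and from 10.3 to 25.6 CPM in pMCAO libraries. Germinal centre B cells, which divide fast in gut follicles, were represented by 4 listed markers, 3 of them below 0, with sums of 15.8 to 61.4 and 16.8 to 40.0 CPM, and Gcsam and Rgs13 were each at 0 in 1 library. The 6 B cell markers summed to 77.7 to 390.0 and 64.0 to 425 CPM (5 of 6 below 0), with Ms4a1, Cd79a and Pax5 at 0 in 1 library each. The 5 mast cell markers, with 5 of 5 below 0 and 2 at an unadjusted p under 0.05 (Mcpt1 and Mcpt2), summed to 2158 to 20462 and 457 to 6723 CPM, and sham 5 was highest. The 6 monocyte markers, with 4 of 6 below 0 and 2 at an unadjusted p under 0.05 (Plac8 and Vcan), summed to 642 to 2329 and 614 to 1654 CPM. The 6 plasma cell markers summed to 955 to 25370.1 and 1267 to 28241 CPM (1 of 6 below 0), the 6 dendritic cell markers to 115 to 323 and 81.2 to 388 CPM (3 of 6), and the 7 stroma and endothelium markers to 54.3 to 102 and 31.9 to 86.5 CPM (3 of 7), with Kdr at 0 in 1 library. The 2 listed neutrophil markers stayed at 0.388 to 10.4 and 0.202 to 12.2 CPM, with S100a8 and Retnlg both at 0 in at least 1 library. The 12 macrophage markers summed to 3322 to 8998 and 4631 to 9696 CPM, with 5 of 12 below 0. The part of these cell types in the levels of the 39 genes was not tested.

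**Figure D5:**
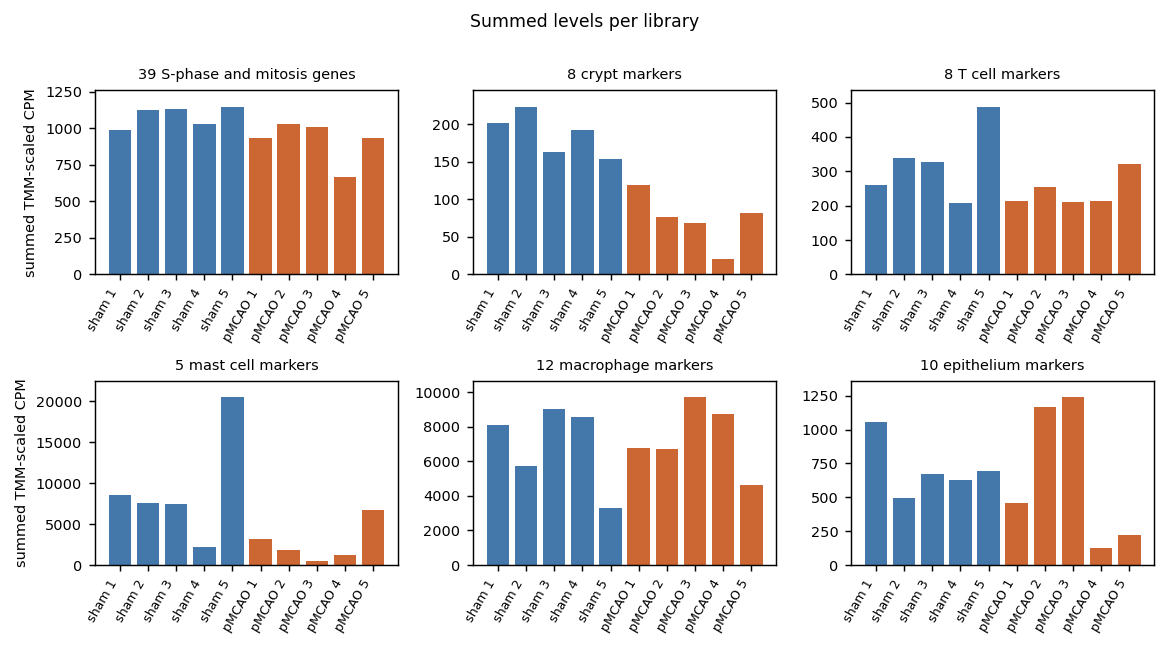
Summed TMM-scaled CPM per library (bars from 0; sham blue, pMCAO orange) of the 39 genes and of 5 marker lists, each panel with its own scale. The 39 genes dip in pMCAO 4, where the crypt and epithelial sums are also lowest, and the mast cell sum peaks in sham 5. The crypt sums of all pMCAO libraries lie below those of all sham libraries, a gap that rests on Olfm4.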

How the data were processed

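Sorted small intestine macrophages of 5 sham and 5 pMCAO libraries, labelled as biological replicates, were sequenced as paired 100-base reads after removal of ribosomal RNA. The deposited table gives raw counts of each gene, as whole numbers, beside the authors' own CPM values, which were not used. The authors' columns of group values, mean expression, p-values and FDR were not used either. The submitters' processing notes name STAR, featureCounts, limma and GRCm38 (mm10), with no versions or strand setting. Each of the 17279 listed genes had at least 10 counts in its 2nd highest library, so genes below some limit had been removed.

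From the counts, 16949 genes passed filterByExpr and were compared by edgeR 4.0.16 (TMM, quasi-likelihood test, Benjamini-Hochberg adjustment, no covariate) in R 4.3.3. Standard errors are the log2 fold change over the root of its F statistic. Alternatives used DESeq2 1.42.0, limma-voom (limma 3.58.1), other scalings and filters, thinned counts, the replicate block and left-out libraries. RPKM used the longest GENCODE M21 transcript, found for 17193 genes. Promoters came from RefSeq (GRCm38.p6). The members and lists were chosen with earlier results of these data known. Genes with values in every library are, for each role, the one of highest mean CPM and the 2 of smallest p, plus Mki67, Top2a and Pcna. From each other cell cycle list, the gene of highest mean CPM and that of smallest p in each direction were named. Of these, only Clspn is given with values in every library, and the rest by fold change. Cenpa, Hmgb2 and the other genes with an unadjusted p under 0.05 or at 0 were named after their values were seen, and some listed genes are not reported here by name. Promoters were shown for the motifs found. P-values measure only the spread between these libraries, whose total counts limit precision for weak genes. No library repeated another of its group (chi-square over its degrees of freedom 39.2 or more in 20 pairs). On simulated data for pMCAO against sham (16452 genes), edgeR recovered 60 of 100 genes changed by a log2 fold of 2 and 72 of 100 changed by 3, with 4 false calls. DESeq2 recovered 69 and 80 with 48 false calls, and limma-voom 50 and 68 with 8. Smaller changes were not simulated, so these rates do not apply to the members, whose fitted log2 fold changes ran from -0.90 to 0.32.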

Additional observations from a re-analysis of the deposited data

Results flagged for a closer look

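In 92 groups of 5 libraries (39 genes, 6 role sums and the summed module, in sham and in pMCAO, as log2(CPM + 0.5)), the gap between an extreme library and its neighbour was compared with the whole range of the group, and 4 passed the limit of 0.71. Chance alone flags about 1 group in 20, here 4.6. Pbk was highest in pMCAO 3, at 16.2 CPM against at most 5.00 CPM in the other pMCAO libraries, a gap of 0.763 of the range. Kif23 was lowest in pMCAO 1, at 16.3 CPM against at least 24.5 CPM in the others (0.968 of the range). Cenpe was lowest in pMCAO 4, at 16.5 CPM against at least 25.6 CPM (0.724 of the range). The summed 39 genes were lowest in pMCAO 4 as well, at 667 CPM against at least 935 CPM (0.781 of the range).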

How the results depend on the processing

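None of the 39 genes passed an adjusted p of 0.05 in any of the 20 alternatives, and at an unadjusted p under 0.05 the count of lower members stayed between 3 and 6 and that of higher members at 0. The 3 came from leaving out both libraries with Xist counts, with a smaller design. Leaving out each library in turn gave 4 to 6 lower members and a median log2 fold change of the members from -0.41 to -0.15. Over all genes, DESeq2 called 3 and every other fit 0, and 799 genes had an unadjusted p under 0.05 in edgeR, 1011 in DESeq2, 1303 with the replicate block, 462 without both pools and 575 to 1268 with 1 library left out (1268 without pMCAO 2). The replicate block gave 6 lower members (Top2a besides the 5, with an unadjusted p of 0.0054 and an adjusted p of 0.597), an unchanged count of 0 adjusted calls and a median of -0.28. Same-numbered libraries deviated together with correlations from -0.0055 to 0.37, 3 of 5 above 0.1, and a sham library correlated best with its own number in 2 of 5, so that not every pair deviated together and the samples were not treated as paired.

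Of the 39 genes, 22 kept their sign in all 20 alternatives, among them Kif11, Kif23, Stmn1, Birc5, Dut, Top2a and Mki67, and 17 did not. The signs of the following turned, and the cause was not tested. With DESeq2, Bub1b came to 0.0046, and with DESeq2 size factors to 0.0056. With limma-voom, Aurkb was 0.014, Cenpf 0.043, Ube2c -0.11, Kif20a -0.12 and Nusap1 -0.21. With the replicate block, Tk1 was -0.088, Ube2c -0.048 and Nusap1 -0.10. With counts thinned to the smallest library, Tk1 was -0.081, Ccne2 0.15 and Plk1 0.11. Without both pools, Ung was 0.18 and Bub1b 0.056. Without both Xist libraries, Tk1 was -0.047, Pcna -0.056, Ccne1 0.10, Ccna2 0.096, Ccnb2 0.11, Plk1 0.21, Bub1b 0.16, Cdc20 0.099 and Cenpf 0.088. With 1 library left out, the sign turned for Aurkb (-0.27 to 0.084), Bub1b (-0.35 to 0.17), Ccna2 (-0.19 to 0.069), Ccnb1 (-0.70 to 0.22), Ccnb2 (-0.38 to 0.089), Ccne1 (-0.46 to 0.12), Ccne2 (-0.32 to 0.15), Cenpf (-0.26 to 0.059), Kif20a (-0.18 to 0.33), Nusap1 (-0.36 to 0.12), Pcna (-0.022 to 0.11), Plk1 (-0.38 to 0.075), Rrm2 (-0.11 to 0.51), Tk1 (-0.19 to 0.24), Ube2c (-0.24 to 0.35) and Ung (-1.10 to 0.29), given as their lowest and highest values. Depth limits the weakest members, of which 8 had under 30 counts in pMCAO 4.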

Other observations

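S-phase and mitosis members did not always deviate alike within a library. The median deviation from the gene means on the log2 scale was -0.20 for the 13 S-phase members and 0.24 for the 22 mitosis members in sham 1, 0.33 and 0.0094 in sham 4, and -0.027 and 0.16 in pMCAO 3. In pMCAO 4 both were low, at -0.84 and -0.73. Tk1 and Ccne2 were highest in pMCAO 5 and Tk1, Ung and Ccne2 lowest in pMCAO 3, where Ccnb1, Ccnb2, Cdc20 and Ube2c were highest. Between the groups, the 13 S-phase members had a median log2 fold change of -0.30 (10 below 0) and the 22 mitosis members one of -0.20 (18 below 0). These are single libraries and descriptions, and the difference was not tested.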
